A study of Mus musculus with 4 samples.

Results

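The collagens are the structural proteins of basement membranes and connective tissue, and 35 of the 12393 genes tested on these arrays were collagen genes. They were taken by platform symbol (Col, a number, a and a number), with Col17a1, a hemidesmosome component, left out, and each gene was read from its brightest probe set out of 57 collagen probe sets in all. Expression was measured on 4 Affymetrix arrays of RNA from back skin cells sorted at postnatal day 49 from mice carrying K14-GFP-actin, an actin-GFP fusion driven in basal keratinocytes by the promoter of keratin 14. The total group (n = 2 arrays) came from every living cell with GFP, and the bulge group (n = 2 arrays) from those with GFP, high α6 integrin and high CD34, which selects the basal layer of the follicle bulge, here at telogen, the resting phase. All 4 samples carried the same transgene, and the total sort still contained bulge cells. The labels do not say whether replicates came from separate mice, so p-values reflect only how far the arrays of a group differ, which may be technical. In bulk RNA, fewer cells of a type and less RNA per cell cannot be told apart.

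A collagen molecule is built from chains wound into a triple helix, and the chains of a molecule are often made from different genes. Fibrillar collagens (types I, II, III, V and XI) form the fibres of connective tissue, type IV forms the sheet of the basement membrane, and type VI forms beaded filaments at the border between basement membrane and stroma. Type VII anchors the epidermal basement membrane to the dermis, type XVIII is a basement membrane collagen whose end fragment is endostatin, and FACIT collagens decorate fibrils or basement membrane zones. Keratinocytes are known to make type IV, VII and XVIII chains, while types I, III, V and VI are best known as fibroblast products.

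Promoter windows were read from RefSeq sequences of build GRCm38.p6, from 250 bases before to 50 bases after a start site, and 26 of the 35 collagens had at least 1 such window (29 windows). The windows of Col6a1 (chr10:76725995-76726294, minus strand), Col6a2 (chr10:76623355-76623654, minus strand) and Col1a2 (chr6:4505368-4505667, plus strand) are shown because these genes had among the largest differences between the groups. Those of Col4a1 (chr8:11312777-11313076, minus strand) and Col4a2 (chr8:11312555-11312854, plus strand) are shown because this pair lies head to head and had similar differences, and the 2 windows share 78 bases. Each is written 5′ to 3′ on the strand of its gene, and capitals mark matches on either strand to the TATA box letters TATAAA, the CCAAT box letters CCAAT and the GC box letters GGGCGG.
Col6a1: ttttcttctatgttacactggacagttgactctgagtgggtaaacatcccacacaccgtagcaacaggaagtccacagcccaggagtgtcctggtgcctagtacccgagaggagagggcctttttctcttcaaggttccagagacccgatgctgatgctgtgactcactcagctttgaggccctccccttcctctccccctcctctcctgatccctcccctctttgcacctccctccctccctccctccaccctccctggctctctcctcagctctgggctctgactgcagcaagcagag
Col6a2: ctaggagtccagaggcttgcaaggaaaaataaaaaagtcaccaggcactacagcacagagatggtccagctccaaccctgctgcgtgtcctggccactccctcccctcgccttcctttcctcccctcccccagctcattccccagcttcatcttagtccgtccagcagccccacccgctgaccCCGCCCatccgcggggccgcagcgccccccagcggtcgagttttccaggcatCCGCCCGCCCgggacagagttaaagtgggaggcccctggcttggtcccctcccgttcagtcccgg
Col1a2: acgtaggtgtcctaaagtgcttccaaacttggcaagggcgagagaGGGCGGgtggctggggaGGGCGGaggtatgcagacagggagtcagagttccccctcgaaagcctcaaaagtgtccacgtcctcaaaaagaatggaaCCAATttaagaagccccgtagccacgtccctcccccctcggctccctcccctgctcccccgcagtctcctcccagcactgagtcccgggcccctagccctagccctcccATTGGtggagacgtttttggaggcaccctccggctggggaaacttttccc
Col4a1: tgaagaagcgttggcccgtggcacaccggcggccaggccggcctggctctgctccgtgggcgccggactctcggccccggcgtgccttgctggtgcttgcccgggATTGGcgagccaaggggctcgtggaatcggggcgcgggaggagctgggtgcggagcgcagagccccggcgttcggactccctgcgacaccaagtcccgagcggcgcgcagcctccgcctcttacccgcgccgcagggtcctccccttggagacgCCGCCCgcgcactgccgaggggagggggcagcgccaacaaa
Col4a2: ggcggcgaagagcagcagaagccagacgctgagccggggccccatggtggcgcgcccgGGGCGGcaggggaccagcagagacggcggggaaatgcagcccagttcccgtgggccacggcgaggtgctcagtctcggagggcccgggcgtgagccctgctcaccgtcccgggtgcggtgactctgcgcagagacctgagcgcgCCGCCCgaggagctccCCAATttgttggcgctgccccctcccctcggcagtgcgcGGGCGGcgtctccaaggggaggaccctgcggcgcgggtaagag

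None of the 5 windows shown held TATAAA, which 13.6% of the 32851 windows in the table held and 4 of the 29 collagen windows held. The Col6a1 window held none of the 3 motifs. Col6a2 had 3 matches to the GC box letters, of which a pair overlapped, and no CCAAT. Col1a2 had 2 matches to CCAAT and 2 to the GC box letters. Col4a1 had 1 CCAAT match and 1 GC box match, and Col4a2 had 1 and 3. CCAAT was present in 37.4% of all windows and 11 of the collagen windows, and the GC box letters in 35.7% and 17. These matches describe letters in the windows and do not show a bound site.

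**Figure D1:**
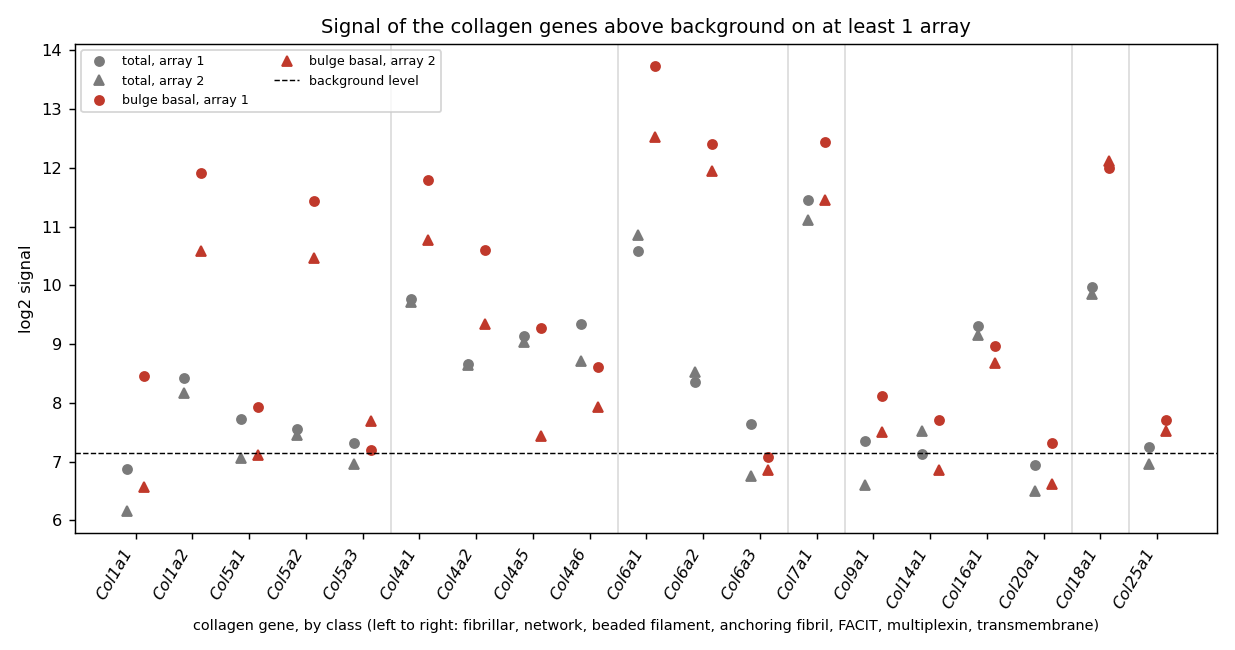
Log2 signal (vertical axis) of the 19 collagen genes above background on at least 1 array, ordered by class on the horizontal axis. Grey points are the 2 total arrays, red points the 2 bulge arrays (circles for array 1, triangles for array 2), and the dashed line is the background level of 7.15. Both bulge arrays stand above both total arrays for Col1a2, Col5a2, Col4a1, Col4a2, Col6a1, Col6a2 and Col18a1, and by less for Col9a1 and Col25a1, with gaps that are wide for Col6a2 and Col5a2, while Col4a6 and Col16a1 lie lower in the bulge group.

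Of the 35 collagens, 19 were above background on at least 1 array, 14 on both arrays of at least 1 group and 11 on all 4 arrays. Background was the 95th percentile of log2 signals of olfactory, vomeronasal and taste receptor genes, which skin is not known to express, at 7.15 (signal 141.6). The other 16 collagens were below it on every array, with signals from 1.87 to 127, and no fold is given for them. These were Col2a1, Col3a1, Col4a3, Col4a4, Col8a1, Col9a2, Col9a3, Col10a1, Col11a1, Col11a2, Col12a1, Col13a1, Col15a1, Col19a1, Col22a1 and Col26a1. Col3a1, the chain of the type III fibrils that accompany type I in dermis, had signals of 42.7 and 66.7 in the total samples and 22.4 and 41.6 in the bulge samples. Its other probe set had 64.0, 39.2, 33.2 and 29.4 in the same order.

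Both bulge arrays lay above both total arrays for 14 of the 35 collagens (40.0%) and below them for 3 (8.57%), against 18.0% and 20.5% of all genes tested. For 6 of these 17 all arrays were below background. Over all 35 collagens the median difference in log2 signal, bulge minus total, was 0.51, against -0.02 over all genes. In the limma fit on group alone with a single variance prior, called the principal fit here, 0 collagens passed an adjusted p of 0.05 (Benjamini-Hochberg over all genes), and 0% of all genes passed in either direction. At an unadjusted p under 0.05 this fit had 8 of the 35 collagens higher and 0 lower, against 642 and 655 of the 12393 genes. The 8 included Col4a4 and Col11a2, which were below background on every array. In the limma fit whose variance prior follows the signal level, called the trended fit, 3 collagens were higher (8.57%) and 0 lower, against 0.557% and 0.524% of all genes. The 3 were Col6a2, Col5a2 and Col18a1, and the verbs rose and fell refer to calls of this fit. All 3 calls were lost without either total array, when 0 genes of the whole table were called, whereas 5 collagens were called higher without bulge replicate 1 and 7 without bulge replicate 2, when the calls over all genes were 171 and 153 higher against 69 with every array. In those last fits the spread came from the total pair alone, and the lone bulge array was assumed to vary like it.

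Type VI collagen genes had wide differences for Col6a1 and Col6a2 but not for Col6a3. Col6a2 had signals of 329 and 366 in the total samples and 5427 and 3962 in the bulge samples. The groups stood far apart, and both pairs of replicates lay close together. Col6a2 rose 13.4-fold, with log2 signals of 8.44 ± 0.11 (SD, n = 2) and 12.18 ± 0.32 (SD, n = 2), a difference of 3.74 ± 0.34 (SE), and a limma adjusted p of 0.0297 in the trended and 0.0729 in the principal model. Col6a1, which encodes the partner chain made in the same molecule, was among the brighter collagen signals at 1538 and 1840 in the total samples and 13543 and 5868 in the bulge samples. Its groups did not overlap, but bulge replicate 1 was well above bulge replicate 2. The 5.30-fold difference in Col6a1 (log2 difference 2.41, 95% interval 1.24 to 3.57) did not pass, with a trended limma adjusted p of 0.0981. Without bulge replicate 1 the difference was 1.80, and without bulge replicate 2 it was 3.01. Without total replicate 1 or 2 it was 2.28 or 2.54.

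Col6a3 encodes the chain that completes the classical type VI molecule. Its signals were 199 and 108 in the total samples and 134 and 116 in the bulge samples, above background on 1 of the 4 arrays. The groups overlapped, and the difference was -0.24 (95% interval -1.37 to 0.89). Within each array the log2 ratio of Col6a2 to Col6a3 was 3.98 higher in the bulge group, and that of Col6a1 to Col6a3 was 2.64 higher, with the groups apart in both cases. With 2 arrays against 2, an exact permutation test of such a ratio cannot give a two-sided p below 0.333, so these shifts are given as descriptions. Because Col6a3 was mostly below background, its own change is only loosely measured.

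Fibrillar collagens were uneven in the same way. Col5a2, a chain of the type V collagen that starts and limits fibril growth, had signals of 188 and 177 in the total samples and 2761 and 1421 in the bulge samples. The total arrays were only a little above background and agreed closely, and both bulge arrays were several-fold brighter. Col5a2 rose 10.9-fold, from a log2 signal of 7.51 ± 0.06 (SD, n = 2) to 10.95 ± 0.68 (SD, n = 2), a difference of 3.44 ± 0.42 (SE) with a limma adjusted p of 0.0337 in the trended and 0.0882 in the principal model. The main partner chain of type V, Col5a1, had signals of 211 and 134 in the total samples and 243 and 139 in the bulge samples. These overlapped, with a difference of 0.13 (95% interval -1.02 to 1.28). Col5a3, another type V chain, also overlapped, at 160 and 124 against 147 and 206, with a difference of 0.30 and only 1 total array above background. The within-array log2 ratio of Col5a2 to Col5a1 was 3.31 higher in the bulge group, which is again a description. Col5a1 was above background on only 1 array of each group, so its own change is loosely measured.

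Type I collagen showed a similar gap between its genes. Col1a2 had signals of 343 and 286 in the total samples and 3852 and 1541 in the bulge samples, with no overlap. Its 7.79-fold difference (log2 difference 2.96 ± 0.49, SE) did not pass in the trended limma fit, at an adjusted p of 0.0629. The fit restricted to genes above background on at least 2 arrays put it at 0.0468, and Col1a2 also passed with the replicate number as a block. With each array centred on its median or after quantile normalization the adjusted p was 0.0667 or 0.0812. A robust variance prior, the mean of its probe sets and 32 added to the signal gave 0.0741, 0.0933 and 0.0796, in otherwise identical limma fits. Without bulge replicate 1 or 2 the difference was 2.30 or 3.62, and without total replicate 1 or 2 it was 3.09 or 2.83. Col1a1, which supplies the other chain of type I, was above background on 1 array only, at 117 and 71.6 in the total samples and 352 and 94.2 in the bulge samples. The single high value was bulge replicate 1, and the groups overlapped. Its other probe set was below background throughout, with signals from 2.98 to 4.61. Among fibrillar genes, Col2a1, Col11a1 and Col11a2, best known from cartilage, were below background on all arrays.

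Type IV collagen genes split between the chains. Col4a1, a chain of the common basement membrane network, had signals of 868 and 838 in the total samples and 3533 and 1752 in the bulge samples. Col4a2, its partner in the same molecule, had 405 and 400 in the total samples and 1566 and 653 in the bulge samples. In both genes the total arrays were nearly equal, the bulge arrays were higher without overlap, and bulge replicate 1 was the higher of the pair. The differences were 1.54 (95% interval 0.52 to 2.57) for Col4a1, a 2.92-fold difference, and 1.33 (95% interval 0.18 to 2.49) for Col4a2, 2.51-fold, with adjusted p-values of 0.201 and 0.362 in the trended limma fit. Without bulge replicate 1 the differences were 1.04 and 0.70, and without bulge replicate 2 they were 2.05 and 1.96. Without total replicate 1 they were 1.57 and 1.34, and without total replicate 2 they were 1.52 and 1.32. The within-array log2 ratio of the pair shifted by 0.21, the smallest shift but one among the 10 pairs of chains compared. The groups were apart in 9 of the 10 pairs, this small shift included. The RefSeq gene order places the pair next to each other, in opposite orientation, with the overlapping windows printed above.

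Col4a5 and Col4a6, another head-to-head pair, whose chains form a network found under skin epithelium, did not share that direction. Col4a6 had signals of 650 and 421 in the total samples and 391 and 244 in the bulge samples, lower in the bulge group without overlap, with a difference of -0.76 (95% interval -1.78 to 0.25). Col4a5 had 564 and 522 in the total samples and 620 and 172 in the bulge samples. Its bulge replicates differed more from each other than the group means did, and the groups overlapped. Without bulge replicate 1 the Col4a5 difference was -1.66 and without bulge replicate 2 it was 0.19, so its sign rested on a single array. The within-array log2 ratio of Col4a1 to Col4a6 was 2.31 higher in the bulge group and that of Col4a2 to Col4a6 was 2.09 higher, both with the groups apart, while that of Col4a5 to Col4a6 shifted by 0.03 with overlap. The remaining pair of type IV genes, Col4a3 and Col4a4, best known from kidney, was below background on all arrays.

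**Figure D2:**
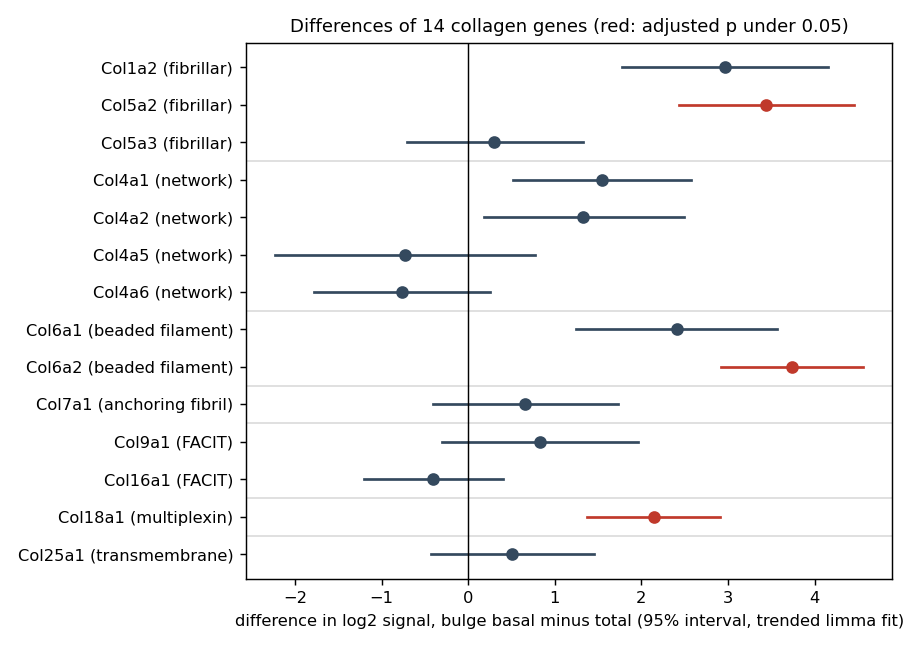
Difference in log2 signal between the bulge and total groups (horizontal axis, bulge minus total) for the 14 collagen genes above background on both arrays of at least 1 group, by class on the vertical axis. Points are group differences and lines are 95% intervals of the trended limma fit with 2 arrays per group. Red marks the 3 genes with an adjusted p under 0.05, Col5a2, Col6a2 and Col18a1. The interval also lies above 0 for Col1a2, Col4a1, Col4a2 and Col6a1.

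Col18a1, which encodes a multiplexin of basement membranes, had the tightest values of the 3 that rose. Its signals were 1002 and 931 in the total samples and 4088 and 4427 in the bulge samples. Replicates agreed closely in both groups, and this was the only gene of the 7 with a difference above 1 and signal above background in which bulge replicate 2 was the brighter. Col18a1 rose 4.40-fold, a log2 difference of 2.14 ± 0.32 (SE), with a limma adjusted p of 0.0479 in the trended and 0.113 in the principal model. The call lay close to the threshold. The adjusted p was 0.0508 with each array centred on its median, 0.0666 after quantile normalization, 0.0584 with a robust variance prior, 0.0530 with the mean of its probe sets and 0.0548 with 32 added to the signal, in otherwise identical limma fits. Col15a1, the other multiplexin gene, was below background on all arrays, with signals from 56.4 to 111.

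Col7a1, the anchoring fibril collagen, was bright in both groups. It had signals of 2802 and 2233 in the total samples and 5573 and 2788 in the bulge samples, so that bulge replicate 2 lay within the total range. The difference was 0.66 (95% interval -0.41 to 1.73), with a trended limma adjusted p of 0.741. Among FACIT collagens, Col16a1, a minor collagen of fibrils and the basement membrane zone, was lower without overlap, at 632 and 568 against 499 and 409, with a difference of -0.41 (95% interval -1.21 to 0.40) short of the threshold. Col9a1, a cartilage collagen, had 163 and 97.3 against 277 and 181, without overlap, at least 1.47-fold higher since only 1 total array was above background, but short of the threshold. Col14a1 and Col20a1 were above background on some arrays and overlapped, with differences of -0.05 and 0.25. Among transmembrane collagens, Col25a1 had 152 and 124 against 209 and 183, a difference of 0.51 short of the threshold. Only 1 total array was above background, so Col25a1 was at least 1.33-fold higher.

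By class, the members above background on both arrays of a group had median differences of 2.96 for 3 fibrillar genes, 3.07 for 2 type VI genes, 0.30 for 4 type IV genes and 0.21 for 2 FACIT genes. The same median was 1.08 over the 14 collagens and -0.02 over the 6961 genes passing that filter. Of the 14, 3 passed it through the bulge group alone, so these medians are a description and not a test. The fibrillar median was 2.30 without bulge replicate 1 and 3.62 without bulge replicate 2, while the type IV median was -0.20 and 1.08, so its sign depended on which bulge array was kept. Replicates within the bulge group were ordered alike for most collagens: bulge replicate 1 was above bulge replicate 2 for 12 of the 14, with a median gap of 0.82, against 50.8% of genes and a gap of 0.02 over all genes passing the filter. In the total group, replicate 1 was likewise above replicate 2 for 12 of the 14, against 3723 of the 6961 genes. Whether an array-level cause lies behind either ordering was not tested.

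**Figure D3:**
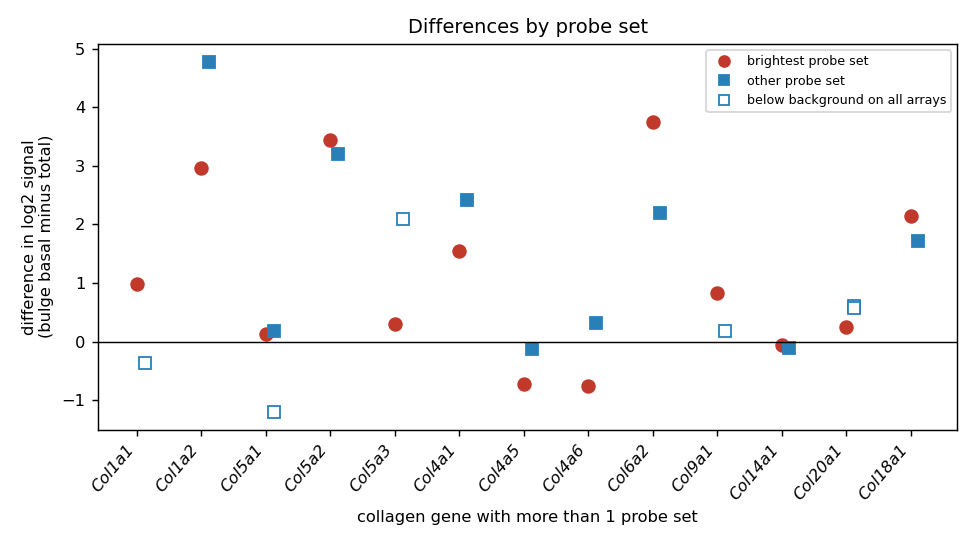
Difference in log2 signal between the bulge and total groups (vertical axis) for each probe set of the collagen genes that have several and lie above background on at least 1 array (horizontal axis). Red circles are the brightest probe sets, which represent the genes in the text, blue squares the others, and open squares those below background on all arrays. Col1a2, Col4a1, Col5a2, Col6a2 and Col18a1 are above 0 by every probe set, whereas the 2 Col4a6 probe sets lie on opposite sides of 0.

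Other probe sets of the same genes gave a second reading on the same RNA. Of the 14 collagens, 7 had another probe set above background on at least 1 array, and it had the same sign for 6. For Col1a2, Col4a1, Col5a2 and Col4a6 that probe set passed through the bulge group alone, so the count is a description and not a test. Col5a2 gave 3.21 by its other probe set and 3.44 by the brightest. That other probe set was below background on both total arrays, at 117 and 71.7, and had 1287 and 560 in the bulge group. Col18a1 gave 1.72 against 2.14, and Col6a2 gave 2.19 against 3.74, the smaller value from a probe set whose x_at suffix marks possible cross-hybridisation. For Col1a2 and Col4a1 too, the other probe set was below background on both total arrays and above it on both bulge arrays. Its bulge signals were 488 and 182 for Col1a2 and 467 and 260 for Col4a1. The exception was Col4a6, whose dimmer probe set had 111 and 86.7 in the total samples and 150 and 101 in the bulge samples, a difference of 0.32 against -0.76.

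Genes that make, process, bind and degrade collagen were read from lists of general knowledge, and their counts stand beside the 0.557% of all genes called higher and 0.524% called lower. Of 15 measured genes for folding and modification of the chains, 0 were called in either direction by the trended limma fit, and their 11 members above background on both arrays of a group ranged from -0.30 to 1.20. Serpinh1, the collagen chaperone HSP47, had signals of 1489 and 1301 against 2256 and 1819, and P4hb, a subunit of prolyl hydroxylase, 7521 and 7695 against 7787 and 11328. Neither passed, with differences of 0.54 and 0.30. Of 5 procollagen processing genes, 1 rose and 0 fell. It was Pcolce2, an enhancer of the removal of the C-terminal propeptide, at 91.8 and 118 against 2028 and 2547, at least 16.1-fold higher with a trended limma adjusted p of 0.0297. No member of 4 crosslinking genes of the lysyl oxidase family was above background on both arrays of a group, and 0 were called.

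Among 10 collagen receptor genes, 0 rose and 1 fell in the trended limma fit. Antxr2, a receptor that binds type IV and VI collagen, had signals of 1231 and 1148 against 148 and 136. Both bulge arrays were at or near background, and the fall was at least 8.21-fold with a trended limma adjusted p of 0.0297. Ddr1, a collagen-activated kinase receptor, had 6290 and 6826 against 6928 and 4685, with overlap. Cspg4, a proteoglycan that binds type VI collagen, had 1389 and 957 against 8268 and 3177, a 4.45-fold difference short of the threshold. Of 11 genes of collagen breakdown, 0 were called, and Mmp2 and Timp2, a gelatinase and its inhibitor, had differences of 1.29 and 2.38. Mmp9, another gelatinase, and Timp3, another inhibitor, lay lower in the bulge group without overlap. Mmp9 had 359 and 442 against 11.5 and 86.6, at least 2.81-fold lower, and Timp3 had 1731 and 1497 against 976 and 391, a difference of -1.38. Of 15 basement membrane partners, 1 rose and 0 fell. It was Sparc, a collagen-binding matricellular protein, at 1224 and 1546 against 8890 and 7851, a 6.07-fold rise with a trended limma adjusted p of 0.0387. The calls of these 3 genes, like all others, were lost without either total array.

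**Figure D4:**
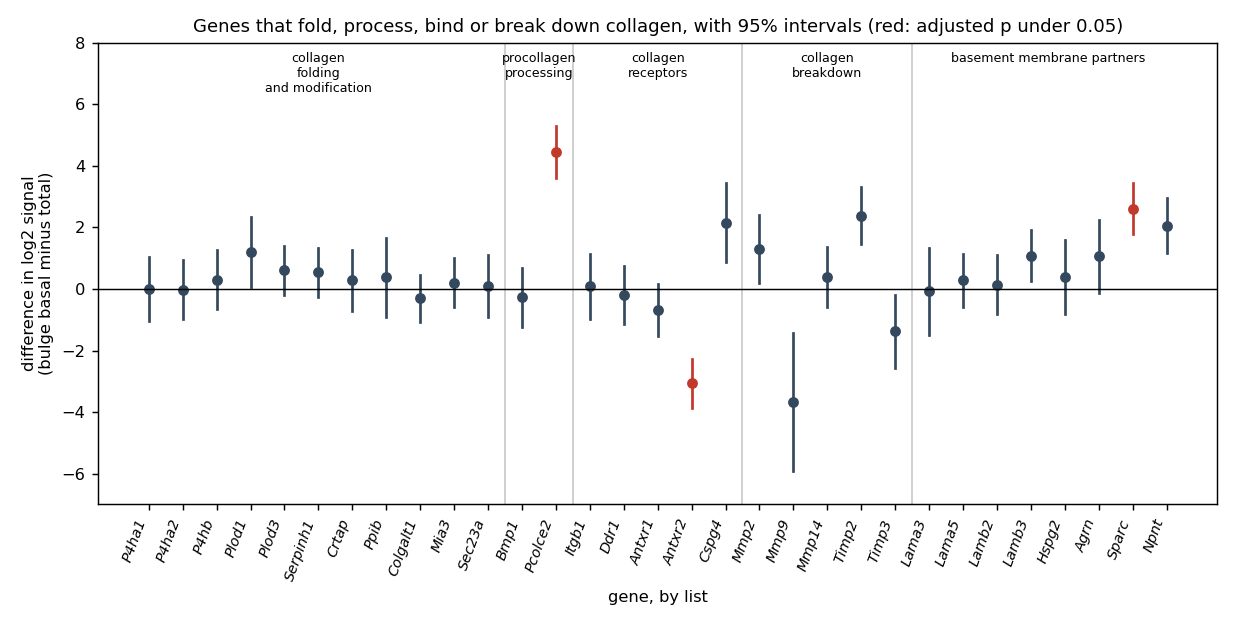
Difference in log2 signal between the bulge and total groups (vertical axis) for genes of the 5 lists with members above background on both arrays of a group, ordered by list on the horizontal axis. Points are group differences and lines 95% intervals of the trended limma fit, 2 arrays per group, with red for an adjusted p under 0.05. Pcolce2 and Sparc lie above 0 and Antxr2 below it, while the folding genes cluster near 0.

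Markers of cells that make much collagen were read beside these results. Of 13 fibroblast markers, 11 were below background on all 4 arrays, including Pdgfra, Dpt, Lum, Dcn and Twist2. Their summed signal was 1794 to 2033 in the total samples and 713 to 744 in the bulge samples. Most of the gap came from Thy1, also a T cell marker, at 877 and 1444 against 131 and 294. Without it the sums were 917 and 588 against 582 and 450, from 12 genes of which 1 was above background on any array. All 9 dermal papilla markers and all 3 adipocyte markers were below background on all arrays. Of 11 endothelial markers 8 were below it throughout, with sums of 545 to 800 and 724 to 795. Of 9 smooth muscle and pericyte markers 6 were below it throughout, and their sum of 1504 to 2038 against 3716 to 8833 followed Cspg4, while Acta2 had 262 and 273 against 246 and 266. Of 4 Schwann cell markers, 1 was below background throughout, with sums of 1968 to 2382 and 2225 to 3791. Pmp22, also made by other cells, had 1278 and 757 against 3201 and 1705, and Mbp had 902 and 987 against 442 and 367.

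The gates and the tissue were checked in the same way. Summed signals of 7 basal keratinocyte markers were 77530 to 98566 in the total group and 90737 to 98441 in the bulge group, and all 7 were above background on every array. All 8 bulge markers were higher in the bulge group without overlap, against 18.0% of all genes tested. Their sums were 3006 to 3884 and 33582 to 38209, and Cd34, part of the gate, had 844 and 1144 against 15697 and 14034. Leukocyte markers moved the other way, with sums of 11769 to 13540 and 1032 to 1457 over 10 markers, and 5 of them fell (Ptprc, Csf1r, H2-Aa, H2-Ab1 and Ctss). Among the bulge markers 5 rose, Cd34, Lgr5, Lhx2, Dkk3 and Ltbp2. The counts of calls for these marker lists stand beside 0.557% of all genes called higher and 0.524% called lower. Of 5 suprabasal markers 1 fell, Krt1, a keratin of differentiating cells, at 8379 and 9221 against 699 and 1118, while sums over the list, in which Krt10 and Lor were the brightest in the bulge samples, overlapped, at 35093 to 53735 and 21028 to 52414. The part of these shifts in the cell mixture in the collagen differences was not tested.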

How the data were processed

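Per the labels' protocols, RNA from sorted cells was reverse transcribed and amplified from an oligo-dT T7 primer and hybridised as biotinylated cRNA to Affymetrix arrays. The deposited values are probe set intensity on a linear scale, with array medians between 123.6 and 145.0. Total replicate 1 had a mean of 500.0 after trimming 2% at each end. Per the submitters' processing notes GCOS, R 2.15.1, affy 1.36 and RMA were used, and which of them made the values is not given in the sources used here. Groups follow the sample titles, because the label for cell type does not differ between the 4 samples.

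Of 22690 probe sets, 20380 had 1 gene symbol in the platform annotation, 691 several and 1555 none, and 64 were controls. Symbols were updated by Entrez ID from a RefSeq table of GRCm38.p6 for 20351 probe sets, and controls and probe sets with several or no symbols were left out. Log2 was taken of the signal, and the brightest probe set stood for each of 12393 genes. Both limma fits (limma 3.58.1, R 4.3.3: lmFit and eBayes, without and with trend) covered all genes, two-sided, with Benjamini-Hochberg adjustment and a threshold of 0.05. A run on simulated data with independent noise checked only that mean estimates were close to the differences put in. The trended fit is described because the principal fit was known to call no gene. The file holds no detection flags, and background was set from 71 probe sets of 67 receptor genes. A fold is given as at least N-fold where the dimmer group was below background on an array, with that array raised to the background level; it leaves out sampling error. The number of arrays limits the precision. Every collagen above background on both arrays of a group is described. From the other lists, called members, some but not all of the brightest and further members of known role are named, the last chosen with their values seen. The members, lists, tests and alternatives were chosen with earlier results of these data known. The alternatives were array centring, quantile normalization, a robust prior, a filter on dim genes, the mean over probe sets, 32 added to the signal, leaving out each array, a replicate block and other background percentiles.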

Additional observations from a re-analysis of the deposited data

How the results depend on the processing

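Of the 14 collagens described one by one, 13 kept the sign of their difference under all 11 alternatives, and Col4a5 did not. Of their 154 values under alternatives in the trended limma fit, 132 stayed on the same side of the threshold, 11 moved past it and 11 no longer passed it, all of the latter for Col6a2, Col5a2 and Col18a1. The principal fit called 4 collagens higher with the filter on dim genes, which leaves fewer genes to adjust over, and 1 with 32 added to the signal, against 0. The trended fit called 0 to 7 higher when each array was left out in turn, against 3. With the replicate number as a block it called 7, adding Col1a2, Col6a1, Col4a1 and Col4a2, and 467 genes higher against 69. Same-numbered arrays deviated together across 6961 genes (r = 0.573), but no label says what a number shares. The block lost no collagen call. Collagens higher without overlap numbered 9 of 16 under the filter, against 14 of 35, when the count over all genes was 1442 against 2229. Among genes above background on both arrays of a group, 9 of 14 collagens and 1442 of 6961 genes were higher without overlap. Of the 14, 3 passed that filter through the bulge group alone, with Col9a1 and Col25a1 among the 9, so this is a description and not a test. With an array left out, collagens higher without overlap numbered 15 to 26, when the count over all genes was 3315 to 4510 against 2229. Those lower without overlap numbered 3 to 9 with an array left out, against 3, and over all genes 3456 to 4946 against 2540. The median over the 14 was 0.62 to 1.56 with an array left out. At the 90th and 99th background percentiles, 20 and 18 collagens were above background on at least 1 array and 14 and 9 on all. The cause of these shifts was not tested, and signals near background limit Col1a1, Col5a1 and Col6a3.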

Other observations

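Several of the collagen genes that differed lie close together on chromosome 10. In the RefSeq order of protein-coding genes, Col6a2, Col6a1, Pcbp3, Slc19a1 and Col18a1 follow each other without a gap. Pcbp3, which encodes a poly(C)-binding protein and was looked at after its place in this run was seen, had signals of 112 and 92.5 in the total samples and 869 and 817 in the bulge samples. Both total arrays were below background, and it was at least 5.95-fold higher with a trended limma adjusted p of 0.0297. Slc19a1, a folate carrier gene between Pcbp3 and Col18a1, had 472 and 420 against 524 and 884, a difference of 0.61 short of the threshold. The next gene on one side, Ftcd, was below background on all arrays, and the next on the other, Pofut2, had a difference of 0.66 short of the threshold. On chromosome 1 the neighbours Col3a1 and Col5a2 differed, with Col3a1 below background on every array and Col5a2 higher in the bulge group.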
